A study of Drosophila melanogaster and Nicrophorus vespilloides with 16 samples.

Results

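The genes described here are 10 genes of the Notch pathway of Drosophila melanogaster, taken from a fixed list and set beside all 13922 protein-coding genes of the 6 main chromosome arms. They were N, the receptor, the ligands Dl and Ser, the intracellular parts Su(H), H, mam and neur, and 3 proteins that act in membranes or the Golgi, kuz, fng and nct. All 10 were found in the gene table, Dl under the name Delta and nct under Nct. H3K4me3, the histone H3 tail carrying 3 methyl groups on its lysine 4, typically sits at the starts of genes in use, and its sites were mapped by chromatin immunoprecipitation with sequencing (ChIP-seq). The material was third-instar larvae of the wild-type strain Oregon-R, kept at 22 °C with no treatment named, and each of the 4 replicates pooled 30 whole animals. These 4 ChIP libraries form the single group used here. The series also holds 4 ChIP libraries of single adult brains of the beetle Nicrophorus vespilloides and 8 input libraries, which were not analysed here.

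Notch signalling passes between touching cells. A ligand on one cell binds the receptor on its neighbour, the receptor is cut outside and then within the membrane, and its freed inner part goes to the nucleus. There it joins the DNA-binding protein Su(H) and the co-activator Mastermind and switches on target genes that Su(H), with the co-repressor Hairless, otherwise keeps silent. In the larva the pathway is known for its part in setting the wing margin, spacing sensory bristles and controlling the stem cells of the brain. Whole larvae mix tissues that use the pathway with many that do not, so fewer cells carrying the mark and less of the mark in each cell cannot be told apart, and expression was not measured.

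Each replicate came as a list of peak summits, a summit being the base of highest enrichment in a called peak, with the authors' score. Replicates 1 to 4 held 3518, 4969, 5236 and 5313 summits, with median scores of 5.97, 8.83, 15.2 and 24.7. Replicate 1 thus had the fewest and the lowest-scoring summits. Scores grow with sequencing depth, which is unknown here, so the score of a summit was also expressed as its percentile among all summits of its own replicate. A gene counted as marked if 3 or more of the 4 replicates had a summit inside it or at most 1 kb outside an end. The gene table gives no strand, so the ends are called lower and higher by their coordinates, and a start could not be told from a 3′ end.

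Of the 10 Notch pathway genes 6 were marked (N, Su(H), H, mam, neur and nct), against 44.9% of all protein-coding genes. The ligands and receptor had 1 marked gene of 3, and the intracellular parts had 4 of 4. The membrane and Golgi proteins had 1 of 3. Su(H), H, neur and nct had a summit in all 4 replicates, as did 34.6% of all protein-coding genes. Dl, Ser and fng had none in any replicate, as did 48.5% of all protein-coding genes. With summits within 1 kb of an end alone, leaving out the rest of the gene, the same 6 genes were marked, against 43.9% of all protein-coding genes. Replicates 1 to 4 had a summit at 4, 6, 6 and 7 of the 10 genes, against 36.6%, 44.8%, 47.9% and 50.1% of all protein-coding genes. The number with a summit was thus lowest in replicate 1 for these genes and for all genes. With so few genes the shares are a description, and no test was made of them.

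The position of the summits changed this picture. Of the 34 summits counted for the 10 genes, 14 (41.2%) lay inside the gene and 20 lay outside it, in each case inside a neighbouring gene. Over all protein-coding genes 53.2% of such gene and summit pairs lay inside the gene. When only summits inside the gene were counted, 3 of the 10 genes were marked, Su(H), H and nct, against 32.7% of all protein-coding genes. The ligands and receptor then had 0 of 3 and the intracellular parts 2 of 4.

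**Figure D1:**
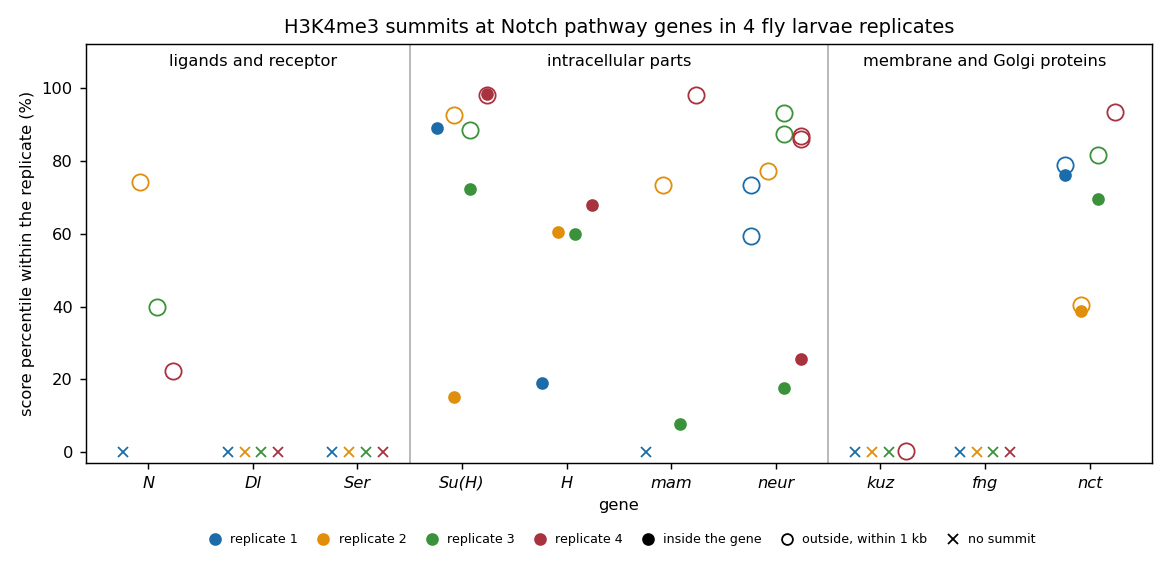
Score percentile within the replicate (y axis, %) of each summit counted for the 10 Notch pathway genes (x axis), coloured by replicate, with filled points for summits inside the gene, open points for summits outside it within 1 kb, and crosses for no summit. Filled points are found at Su(H), H, mam, neur and nct, the 3 points of N are all open, and Dl, Ser and fng have crosses only.

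The receptor gene N encodes a large transmembrane protein and lies on X from 3134870 to 3172221, a span of 37.4 kb. No summit lay inside it in any replicate. It was marked through summits beyond its higher-coordinate end, at positions 3172951, 3172863 and 3172971 in replicates 2, 3 and 4. These summits span 108 bp, lie 642 to 750 bp outside N, and all fall inside CG18508, which begins 47 bp beyond the end of N and whose far end was 169 to 277 bp away. Their scores were 12.0, 13.1 and 13.1 in replicates 2, 3 and 4. As percentiles within the replicate they stood at 74.3, 40.0 and 22.3. The score was therefore nearly the same in these replicates while its rank among the summits differed widely. In replicate 1 the nearest summit was 311 kb away. With absence counted as 0, the percentile of N averaged 34.1 ± 31.4 (SD, n = 4), and 61.4% of protein-coding genes had a lower mean.

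The ligand genes Dl and Ser encode transmembrane proteins with DSL domains, shown on the surface of the sending cell, and both were without summits. Dl lies on 3R from 19302731 to 19326217. The summit nearest to it was 73.1, 73.1, 73.0 and 73.1 kb away in replicates 1 to 4, always inside Polr2M. Ser lies on 3R from 27172090 to 27194267. Its nearest summit was 6.78, 6.70, 6.77 and 6.66 kb away in replicates 1 to 4, each time inside CG34293. For each ligand gene the nearest summit was thus inside the same gene in every replicate, much closer for Ser than for Dl. No coding gene lay within 1 kb of an end of Dl or Ser, the nearest being CG44174 at 5.04 kb from Dl and spn-D at 4.97 kb from Ser.

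Su(H), which encodes the DNA-binding protein of the pathway, had the highest mean percentile of the 10 genes. It lies on 2L from 15039488 to 15043334. A summit lay inside it in all 4 replicates, at 15039657, 15039626, 15039653 and 15039644, a span of 31 bp that begins 138 bp inside the lower-coordinate end. These inside summits had scores of 9.91, 4.91, 20.4 and 59.1 in replicates 1 to 4. Their percentiles were 88.9, 15.3, 72.2 and 98.3, so the summit ranked low in replicate 2 and high in the other replicates. Their mean was 68.7 ± 37.2 (SD, n = 4).

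A second group of summits near Su(H) lay inside the neighbour CIAPIN1, which ends 627 bp away. Replicates 2, 3 and 4 had a summit inside CIAPIN1, 795, 998 and 828 bp outside Su(H), and replicate 1 had none. The summit in replicate 3 thus lay just within the limit of 1 kb. The scores of the CIAPIN1 summits were 16.5, 26.2 and 58.4 in replicates 2, 3 and 4, against 4.91, 20.4 and 59.1 inside Su(H). The neighbour had the higher score in replicates 2 and 3, and the scores were nearly equal in replicate 4. Counting the stronger summit in each replicate, Su(H) had percentiles of 88.9, 92.6, 88.4 and 98.3, a mean of 92.0 ± 4.56 (SD, n = 4). It ranked 168 among 13922 genes by this mean, and 98.8% of genes were lower.

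Across the 4 replicates, the genes more than 10 kb away with percentiles most like those of Su(H) were CG30414, roh and eIF2Bdelta on 2R. All 3 had the same values, 89.5, 90.7, 90.8 and 94.9 in replicates 1 to 4. They lie next to each other and were scored by the same summits, so they count as 1 site. The Euclidean distance to Su(H) was 4.63 percentile points. The Su(H) values compared were those of the stronger summit, which in replicates 2 and 3 lay inside CIAPIN1.

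H encodes Hairless, the co-repressor that binds Su(H). It lies on 3R from 20621938 to 20628915. Of the 7 genes with a counted summit it was the only one whose summits all lay inside the gene, with 1 summit in each replicate. Their positions were 20622234, 20622311, 20622232 and 20622166 in replicates 1 to 4, 228 to 373 bp inside the lower-coordinate end. Scores were 4.05, 10.0, 17.4 and 31.7, and percentiles were 19.0, 60.5, 60.0 and 67.8. Replicates 2 to 4 ranked the site alike and replicate 1 ranked it lower. The mean percentile was 51.8 ± 22.2 (SD, n = 4), and 71.6% of protein-coding genes had a lower mean.

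The gene mam encodes Mastermind, the co-activator that joins the freed receptor and Su(H) on DNA. It is a gene of 69.2 kb on 2R, and its neighbour RN-tre ends 496 bp from its lower-coordinate end. A summit lay inside mam only in replicate 3, 128 bp from that end, with a score of 5.11 and a percentile of 7.87. Replicates 2 and 4 had a summit inside RN-tre, 623 and 687 bp outside mam, with scores of 11.9 and 58.3 and percentiles of 73.3 and 98.0. In replicate 3 the RN-tre summit was 1031 bp outside mam, just past the limit, with a score of 19.7 and a percentile of 69.6. Replicate 1 had no summit within 1 kb. Of the 3 summits counted for mam, 2 thus lay inside RN-tre and 1 inside mam. Which of the genes the mark belongs to was not tested. The mean percentile of mam was 44.8 ± 48.3 (SD, n = 4).

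The gene neur encodes Neuralized, the ubiquitin ligase that starts the uptake of ligands in the sending cell. It lies on 3R from 9020348 to 9039471 and had summits beyond both ends. Beyond the lower-coordinate end, replicates 1, 3 and 4 had a summit inside tgo, 432, 528 and 506 bp outside neur, with scores of 7.74, 25.6 and 41.8. Replicate 2 had none there.

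At the higher-coordinate end neur overlaps hyx. All 4 replicates had a summit in the part of hyx outside neur, at 9039995, 9039983, 9039963 and 9039970, a span of 32 bp that begins 492 bp from the end of neur. Their scores were 6.55, 12.5, 29.3 and 41.3 in replicates 1 to 4. Replicates 3 and 4 had a further, weaker summit where neur and hyx overlap, at 9039202 and 9039227, with scores of 7.89 and 14.8. The weaker pair stood at percentiles of 17.8 and 25.7. No summit fell in the part of neur that it shares with no other coding gene. Counting the strongest summit, neur had a mean percentile of 82.6 ± 9.02 (SD, n = 4), second to Su(H) among the 10 genes. With summits inside neur only, the mean was 10.9 ± 12.9 (SD, n = 4).

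**Figure D2:**
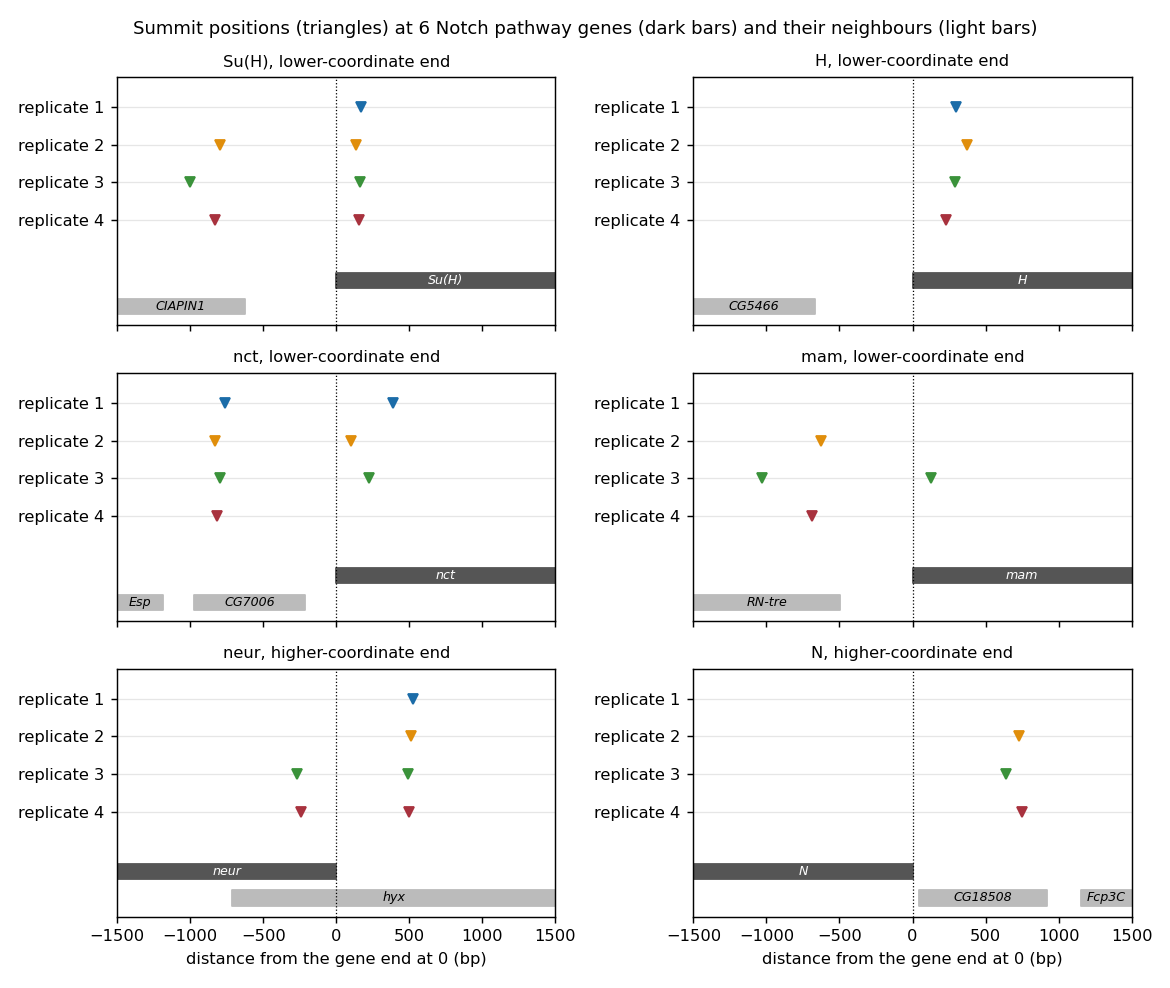
Summit positions (triangles, one row per replicate) within 1500 bp of one end of Su(H), H, nct, mam, neur and N, with distance from that end on the x axis (bp), the named gene as a dark bar and neighbouring coding genes as light bars. Summits fall 138 to 169 bp inside Su(H) and 228 to 373 bp inside H, while those at N fall 642 to 750 bp outside it, in CG18508.

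Of the membrane and Golgi proteins, nct alone was marked. It encodes Nicastrin, a subunit of the γ-secretase that cuts the receptor within the membrane, and lies on 3R from 24851601 to 24854869. A summit lay inside it in replicates 1, 2 and 3, at 24851990, 24851703 and 24851824, 102 to 389 bp from the lower-coordinate end. These had scores of 8.08, 7.61 and 19.7 and percentiles of 76.1, 38.6 and 69.6. The neighbour CG7006, which lies 216 bp away, held a summit in all 4 replicates, 762 to 831 bp outside nct. The CG7006 summits scored 8.33, 7.77, 23.2 and 48.0 in replicates 1 to 4. The pair of sites scored almost alike in replicates 1 and 2, and in replicate 4, where the CG7006 site scored highest, no summit lay inside nct. Counting the stronger site, nct had a mean percentile of 73.5 ± 23.0 (SD, n = 4).

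The gene kuz encodes Kuzbanian, the metalloprotease that makes the outer cut in the receptor. It lies on 2L from 13550139 to 13639411 and was not marked. In replicate 4 a summit with a score of 1.96 lay 823 bp outside it, inside ics, at the percentile 0.264. The smallest score in that replicate was 1.31, so this was one of its weakest summits. The nearest summits in replicates 1, 2 and 3 were 104.9, 104.7 and 1.65 kb away. The gene fng encodes Fringe, the glycosyltransferase that adds a sugar to the receptor in the Golgi and so shifts its response between the ligands. It lies on 3L from 20925891 to 20949512, and its nearest summits were 77.7, 76.6, 77.5 and 76.0 kb away in replicates 1 to 4, all inside skd, which encodes a Mediator subunit.

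Ordered by mean percentile with the flanks of 1 kb included, the 10 genes ran Su(H), neur, nct, H, mam, N and kuz, followed by Dl, Ser and fng at 0. The replicate values of Su(H) and neur overlapped, as did those of neur and nct and those of nct, H, mam and N, so the order of these neighbours does not exceed their spread. Every replicate value of Su(H), 88.4 to 98.3, lay above every value of H, 19.0 to 67.8, and of N, 0 to 74.3. This did not hold for the summits inside Su(H) itself, which stood at 15.3 in replicate 2, where H stood at 60.5 and N, through CG18508, at 74.3. The order also changed with summits inside the gene only. The means were then 68.7 for Su(H), 51.8 for H, 46.1 for nct, 10.9 for neur and 1.97 for mam. N, kuz, Dl, Ser and fng then stood at 0.

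As a class, the ligands and receptor had a median percentile of 0 in all 4 replicates. The intracellular parts had medians of 46.1, 75.3, 74.2 and 92.4 in replicates 1 to 4. The difference, ligands and receptor minus intracellular parts, was -72.0 ± 19.2 percentile points (SD, n = 4 replicates), where the median of the ligands and receptor is fixed at 0 by Dl and Ser. Single genes overlapped, since N at 74.3 in replicate 2 stood above H at 60.5 and mam at 73.3. Over all protein-coding genes the median percentile was 0 in replicates 1 to 3 and 0.264 in replicate 4. With summits inside the gene only, the difference was -25.7. These are 3 genes against 4, and members of a class are not replicates, so the difference was not tested.

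**Figure D3:**
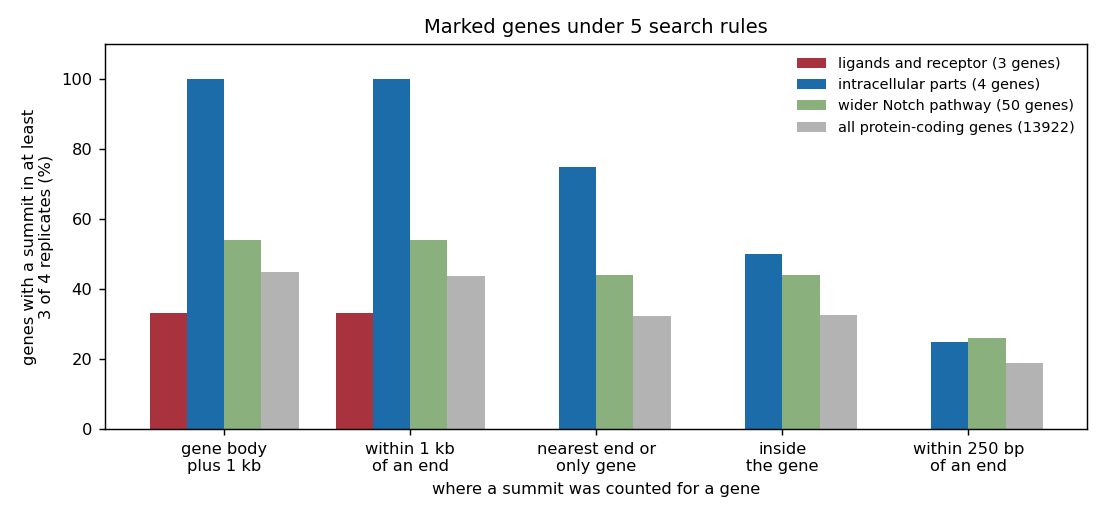
Share of genes with a summit in at least 3 of 4 replicates (y axis, %) under 5 ways of assigning a summit to a gene (x axis), with one bar each for the ligands and receptor, the intracellular parts, the wider Notch pathway list and all protein-coding genes. The ligands and receptor fall to 0 of 3 and the intracellular parts to 2 of 4 when only summits inside the gene count.

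Genome position and gene length also varied among the 10 genes. The 3 genes with no other coding gene within 1 kb of an end were Dl, Ser and fng, and 0 of 3 were marked. Of the 7 genes with such a neighbour 6 were marked. Over all protein-coding genes the shares were 9.52% of those without a close neighbour and 50.4% of those with one. With summits inside the gene, they were 9.41% without a close neighbour and 36.3% with one, against 0 of 3 and 3 of 7 of the Notch pathway genes.

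The 3 shortest genes, nct (3.27 kb), Su(H) (3.85 kb) and H (6.98 kb), were the ones marked by summits inside the gene. The 7 genes from 19.1 to 89.3 kb had 0 marked in that way. Of all protein-coding genes 24.0% of those of at least 15 kb, and 33.6% of shorter ones, were marked inside the gene. With the flanks of 1 kb included, the shares were 35.9% and 45.9%, against 3 of 7 long and 3 of 3 short Notch pathway genes. The length limit of 15 kb and the split by neighbours were chosen after the values were seen. Class, length and isolation overlapped only in part. Dl, Ser and fng were long and isolated, N, mam, neur and kuz were long with a close neighbour, and nct, Su(H) and H were short with one. The unmarked ligand genes Dl and Ser were isolated and the 4 intracellular parts all had a close neighbour. Class and isolation cannot be told apart between them. The part of class, length and isolation in the counts was not tested.

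The wider pathway was described with a further list of 50 genes matched in the gene table. Of these, 27 were marked, against 44.9% of all protein-coding genes. Counting only summits inside the gene, 22 of 50 were marked, against 32.7% of all protein-coding genes. The number of replicates with a summit was 4 for 20 genes, 3 for 7, 2 for 1, 1 for 3 and 0 for 19. Over all protein-coding genes, 34.6% had a summit in all 4 replicates and 48.5% had none in any. Of the 27 marked genes 1, Myc, was listed as a target of the pathway, and the 19 genes without a summit were all listed as targets. Of the targets, 12 lie in 1 block of 43.4 kb, so they are not independent. The median of the gene means was 24.9 for the list, against 1.998 for all protein-coding genes.

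Genes of ligand traffic and receptor endocytosis had 11 of 12 marked, against 44.9% of all protein-coding genes. Each of the 11 was also marked by summits inside the gene alone, against 32.7% of all. All 12 had a close coding neighbour. Of all protein-coding genes with such a neighbour 50.4% were marked, and 36.3% by summits inside the gene. The highest mean percentiles were those of krz, a β-arrestin, at 84.6 ± 22.5, and of lgd, which acts in endosomal sorting, at 78.7 ± 20.5 (SD, n = 4 each). mib1, the other ubiquitin ligase that acts on the ligands, had a summit in all 4 replicates and stood at 72.6 ± 17.8. Its percentiles were 74.9, 81.7, 47.0 and 86.8 in replicates 1 to 4. Rab11, a GTPase of recycling endosomes, stood at 71.2 ± 30.7 and Nedd4, a ubiquitin ligase that acts on the receptor, at 61.7 ± 23.7. The other marked genes were dx, Sec15, AP-1-2beta, lqf (epsin), Su(dx) and shi (dynamin), at means of 34.1 to 53.2. numb, which encodes an inhibitor of the receptor, had a summit in 1 replicate at the percentile 0.621 and was not marked.

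Genes listed under receptor glycosylation and cleavage had 8 of 8 marked, against 44.9% of all protein-coding genes. By summits inside the gene alone 4 of 8 were marked, against 32.7%. All 8 had a close coding neighbour. Of all protein-coding genes with such a neighbour 50.4% were marked, and 36.3% by summits inside the gene. The other γ-secretase subunits were all marked. aph-1 stood at 86.2 ± 5.90, Psn, the catalytic subunit presenilin, at 57.4 ± 32.0, and pen-2 at 50.1 ± 14.3 (SD, n = 4 each). aph-1 was thus high in every replicate, from 79.9 to 92.8, while Psn ran from 19.99 to 90.0. rumi, which adds glucose to the receptor, was also marked by summits inside the gene alone. With the flanks included it stood at 44.0 ± 23.8. Fur1, kul, O-fut1 and Tace were marked with the flanks included and not by summits inside the gene.

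Nuclear co-factors had 7 of 8 marked, against 44.9% of all protein-coding genes, and 6 of 8 by summits inside the gene alone, against 32.7%. All but 1, nej, had a close coding neighbour. Of all protein-coding genes with such a neighbour 50.4% were marked, and 36.3% by summits inside the gene. Bx42, the fly SKIP protein, stood at 81.8 ± 8.65, skd at 67.1 ± 23.0 and kto, its partner in the Mediator kinase module, at 61.0 ± 20.2 (SD, n = 4 each). gro encodes Groucho, a co-repressor recruited by Hairless and by the E(spl) proteins. It had percentiles of 30.3, 38.6, 82.6 and 97.7 in replicates 1 to 4. CtBP, another co-repressor that binds Hairless, was absent in replicate 1 and stood at 34.9, 38.6 and 70.9 in replicates 2 to 4. sno and insv were also marked, insv by summits outside the gene only. nej, the CBP acetyltransferase, had a summit in 2 replicates and was not marked.

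The genes listed as targets of the pathway were mostly without summits. The E(spl) complex and the Bearded family had 0 of 16 genes marked, against 44.9% of all protein-coding genes, and 9.52% of those with no close coding neighbour, as 10 of these 16 are. No summit was found in any replicate at 15 of the 16, BobA among them, against 48.5% of all protein-coding genes. The 12 genes of the E(spl) complex lie in a block of 43.4 kb on 3R, from 25997621 to 26041008, so they are neighbours and not independent. That block held 0 summits in replicates 1, 2 and 3. Replicate 4 had 1 summit, inside E(spl)m3-HLH at 26022305, with a score of 3.32. The gene gro begins 728 bp beyond the block, and its strongest summits lay 921, 1368, 847 and 850 bp inside it in replicates 1 to 4, with scores of 4.65, 7.61, 23.7 and 57.5.

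Of 6 other targets only Myc, a growth regulator, was marked, against 44.9% of all protein-coding genes. Its percentiles were 28.2, 16.0 and 15.7 in replicates 2 to 4, and it had no summit in replicate 1. vg, the wing selector gene, had a summit in replicate 3 alone at the percentile 2.66. Hey, dpn, ct and stg had none in any replicate, as did 48.5% of all protein-coding genes. Of the wider list, 13 genes had no other coding gene within 1 kb of an end, 10 of them in the E(spl) and Bearded class, and 0 of the 13 were marked. Of all protein-coding genes without a close neighbour 9.52% were marked, a share near that of the 13. The lack of a close neighbour moved with the class of the gene here as it did among the 10 genes, and its part in the counts was not tested.

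**Figure D4:**
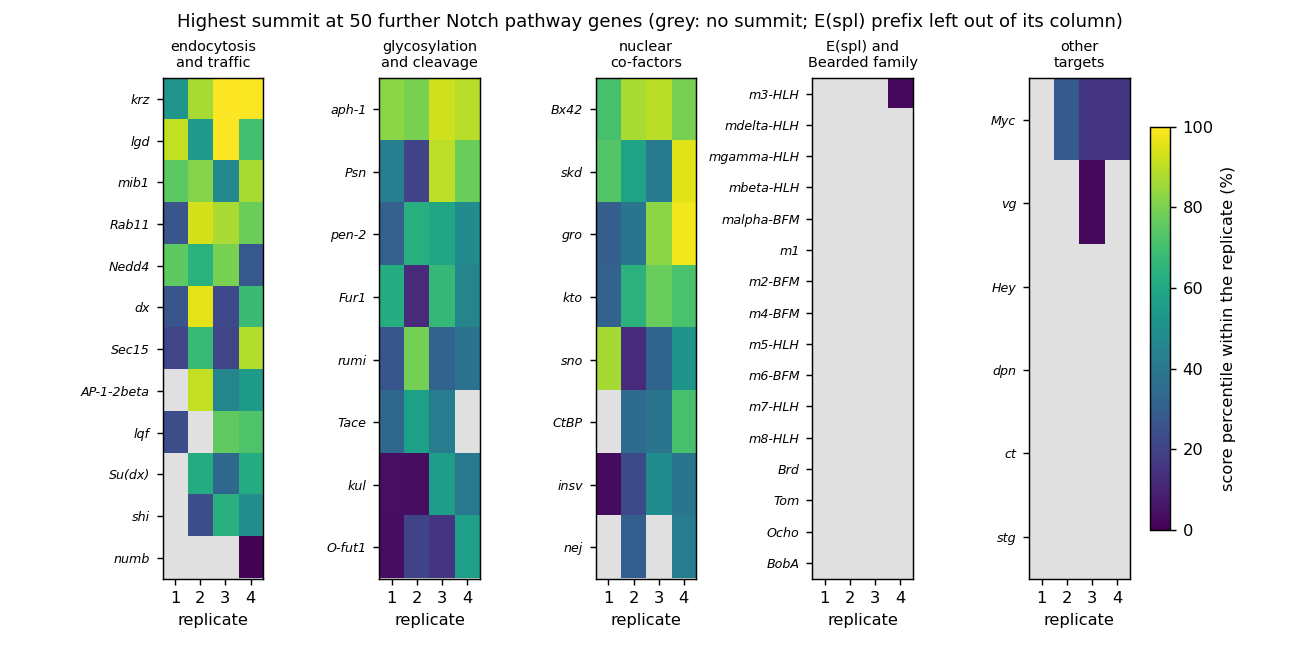
Percentile of the highest summit (colour, %) counted for each of 50 further Notch pathway genes (rows) in replicates 1 to 4 (columns), by class, with grey where no summit was found. The first 3 classes are mostly coloured, and in the E(spl) and Bearded family class 1 of 16 genes has a summit, in replicate 4.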

How the data were processed

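Peak summits of 4 fly H3K4me3 ChIP libraries were used, 1 list per replicate and not pooled. Per the labels' protocols, chromatin was fixed in 1% formaldehyde for 10 min and sonicated for 10 min, and 30 µg entered each immunoprecipitation. Per the submitters' processing notes, MACS2 was among the tools, with BWA 0.7.17 and SAMtools 1.9, and Picard 2.17.11, cutadapt 1.16 and FastQC 0.11.7 are named too. How MACS2 was run, on which build and whether with the input is not given in the sources used here. The authors deposited a score with each summit that looks like the −log10 of a p-value or a q-value, with nothing to say which. The smallest scores, 1.31 to 1.36, lie just above 1.30, the −log10 of 0.05. Read depth is unknown, so no counting intervals are given and a missing summit may be a missed peak.

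Gene names and ends came from a RefSeq gene table (Release 6 plus ISO1 MT). In that build 84.7% to 87.2% of the summits of a replicate lay within 500 bp of an end of a protein-coding gene, against 25.4% to 27.7% after a shift of 10 kb. Positions are 1-based. Symbols were matched directly, or by locus tag for 2 of the 10 genes and 3 of the wider list, and 1 of 51 wider symbols (sbno) was unmatched. The table holds no sequence, so the planned promoter motifs were not run. Percentiles are ranks of scores within a replicate, with absence as 0.

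The genes and lists were chosen with earlier results of these data known. All 10 genes are named. Of each wider class, the marked genes and the alphabetically first gene with no summit are named, with the 3 genes most like the member of highest mean percentile and the neighbours that hold a summit. numb, nej, vg, dpn, ct, stg, E(spl)m3-HLH and the genes nearest to Dl, Ser and fng were named after their values were seen. The labels call the samples biological replicates. Alternatives were other search areas, score minimums, equal numbers of summits, other numbers of replicates and leaving out each replicate. The steps were tested on simulated summits. Python 3.11.15, numpy 2.4.6, pandas 2.3.3 and matplotlib 3.10.9 were used.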

Additional observations from a re-analysis of the deposited data

Results flagged for a closer look

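Among 11 sets of 4 replicate values examined, 3 had a replicate whose gap to the nearest other value was large against the range of the set. The rate of about 1 in 20 that chance would give does not apply here, since absence was set to 0 and some sets share genes. H had a percentile of 19.0 in replicate 1, while replicates 2 to 4 had 60.5, 60.0 and 67.8. kuz had 0.264 in replicate 4, against 0 in the other replicates, and the median of the membrane and Golgi proteins, which is set by kuz, was the same 0.264 in replicate 4 and 0 elsewhere. A single summit above a row of zeros always gives this pattern.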

How the results depend on the processing

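Of 15 settings run, Su(H) was marked in 15, H in 14, neur and nct in 13, N in 10, mam in 9, and Dl, Ser, kuz and fng in 0. Leaving out 1 replicate and asking for a summit in at least 2 of the others gave each time 6 of the 10 genes, 1 of the 3 ligands and receptor and 4 of the 4 intracellular parts, and 27 to 28 of the 50 wider genes, where 45.2% to 48.1% of all protein-coding genes were marked. The class difference then ran from -80.6 to -65.2 percentile points. Its sign is no sign of stability, since Dl and Ser at 0 fix the median of their class at 0. A window of 250 bp around the ends gave 1 of 10 genes, 0 of 3 ligands and receptor, 1 of 4 intracellular parts, 13 of 50 wider genes and a difference of -12.7, where 18.9% of all protein-coding genes were marked. Counting summits inside the gene only gave 3 of 10, 0 of 3, 2 of 4 and -25.7, where 32.7% of all protein-coding genes were marked. The ligands and receptor also had 0 of 3 with equal numbers of summits, where 37.4% of all protein-coding genes were marked. They had 0 of 3 with a summit in all 4 replicates asked for, against 34.6% of all. With a summit whose nearest coding end or only holding gene was the gene itself, they again had 0 of 3. That setting marked 4 of 10 genes, against 32.4% of all. A score of at least 10 left 12 of 50 wider genes, 4 of 10 genes and 24.2% of all genes. By construction these settings ask for summits closer to the gene, stronger or in more replicates, and beyond that the cause was not tested. No paired analysis was possible because only 1 group of samples carries fly summits. With unknown depth, the absence of a summit at Dl, Ser and fng is limited by what the peak caller could detect.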
